A study of Mus musculus with 2 samples.

Results

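The 36 genes described here are interferon-stimulated genes, the antiviral genes that cells transcribe when interferon reaches them. They were chosen by name, and all 36 were found in the GENCODE M21 annotation of the mouse genome build mm10. Open chromatin near them was read from ATAC-seq, an assay in which a transposase cuts accessible DNA and the cut ends are sequenced. Of the listed peaks, 85 of 108778 in replicate 1 and 97 of 114523 in replicate 2 lay within 500 bp of a transcript start of a member. Peaks that overlapped were merged, and regions seen in both replicates are called shared. The members had 40 shared regions at their starts and 155 distal ones within 50 kb, of 69539 shared regions in all.

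The material was megakaryocytes, the marrow cells that give rise to platelets, taken as primary cells from adult male mice of strain C57BL/6J aged 5 to 6 weeks. There was 1 group of 2 biological replicates of 50000 cells each, and the labels name no treatment and no other cell type. Both replicates are separate biosamples under 1 donor record, so their spread may be technical. How the cells were isolated is not given in the sources used here. Since the deposited lists give no read numbers, sequencing depth is unknown, and a region absent from a list was only not detected at whatever depth was reached. With 1 group there was no test of a condition, and members are set beside all protein-coding genes as a description.

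Type I interferon binds the receptor IFNAR, whose kinases JAK1 and TYK2 act on STAT proteins. STAT2 and IRF9 are parts of the complex ISGF3, which binds the interferon-stimulated response element, a repeat of the bases GAAA. Interferon gamma acts at a palindrome named GAS. In human megakaryocytes, IFITM3 is known to limit viral infection, and interferon is also known to act on megakaryocyte progenitors.

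The sequences that the results turn on are the GAAA repeats inside open promoters. A GAAA repeat is here GAAA, any 2 bases and GAAA again, on either strand. The 8 members with the strongest promoter regions among those with such a match are shown, each as 30 bases read in the direction of GAAA from the RefSeq GRCm38.p6 genome (mm10). Capitals mark the match, or the overlapping matches, nearest to the summit, which is the point of highest signal. By their centres, the sites of Slfn5 and Gbp3 lie downstream of their nearest start and the others upstream. The site of Eif2ak2 is centred only 1.5 bp upstream of an internal start, so it spans that start. It lies downstream of the annotated 5′ end.
Trim30a, chr7:104465210-104465239, plus strand: caggaactgaGAAAAAGAAActaaagaact
Usp18, chr6:121245837-121245866, plus strand: ggatctagggGAAAACGAAAgcttggcggt
Bst2, chr8:71537580-71537609, minus strand: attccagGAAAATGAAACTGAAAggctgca
Slfn5, chr11:82952802-82952831, plus strand: tcgtgcctggGAAATAGAAActgatcccta
Eif2ak2, chr17:78882535-78882564, minus strand: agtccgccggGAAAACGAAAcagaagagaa
Ifit3, chr19:34583363-34583392, minus strand: accagaagagGAAAGTGAAActtaccactg
Gbp3, chr3:142560525-142560554, minus strand: aaaaggaactGAAATCGAAAccatgctcct
Ifit1, chr19:34640775-34640804, minus strand: actgagactgGAAAGTGAAActgaagcctg

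The starts of Ifit1 and its neighbour Ifit1bl2 face away from each other and are 127 bp apart. The whole stretch between them is shown because a shared region covers both starts and 2 matches stand in it. On the plus strand the repeat reads as its complement, and the matches begin 86 and 67 bp upstream of the Ifit1 start.
Ifit1bl2 to Ifit1, chr19:34640744-34640870, plus strand: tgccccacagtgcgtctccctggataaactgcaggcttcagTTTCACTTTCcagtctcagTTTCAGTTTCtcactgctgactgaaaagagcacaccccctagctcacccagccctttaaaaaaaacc

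Of the 36 members, 33 (91.7%) had an open promoter, meaning a shared region within 500 bp of any of their transcript starts, against 59.8% of 21755 protein-coding genes. No member had a promoter region in only 1 replicate. In the stricter lists thresholded on the irreproducible discovery rate (IDR), 26 members were open in both replicates, against 52.8% of coding genes. Without that threshold, only Ifitm3, Isg15 and Ifi44 had no promoter region in either replicate. The share stood above the background most clearly among promoters poor in the dinucleotide CpG, which are less often open in these cells. Under a limit of 0.48 for observed over expected CpG around the 5′ end, 25 of 28 CpG-poor members were open, against 28.8% of 9727 CpG-poor coding genes. All 8 members at or above that limit, Bst2, Usp18, Trim25, Oasl1, Cmpk2, Ifih1, Ddx58 and Parp14, were open, against 84.8% of 12028 such coding genes. The median CpG ratio was 0.241 over the members and 0.558 over all coding genes.

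The open member promoters leaned towards the weaker side of all open promoters. Strength is the fold enrichment over local background that the authors' peak calling gave, taken at the strongest promoter region of each gene. Its median was 10.3 over the 33 open members and 11.5 over all 13004 open coding genes. Above the all-gene median stood 10 members, and 23 stood below it. Only 4 passed the upper quartile of 14.3, and 11 fell below the lower quartile of 8.66. Because the cells were measured in bulk, a lower enrichment from fewer cells with an open site cannot be told apart from a less open site in every cell.

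**Figure D1:**
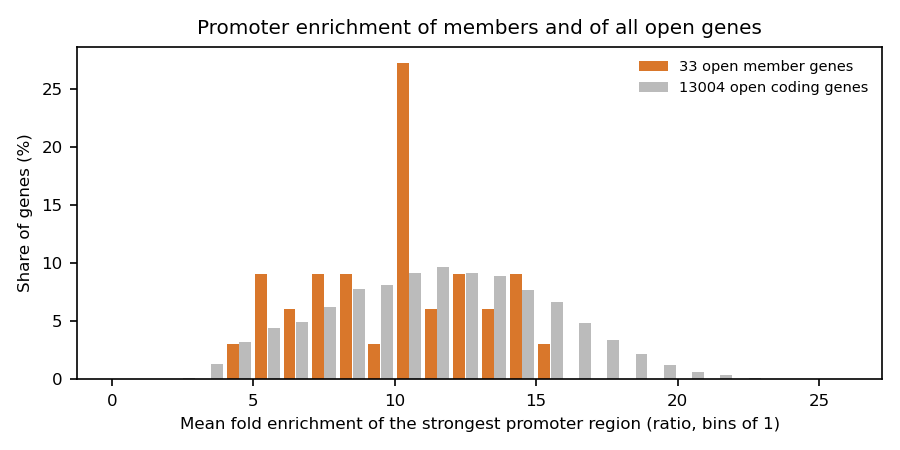
Share of genes in percent by the mean fold enrichment of 2 replicates at the strongest promoter region, in bins of 1, for the 33 open members and for 13004 open coding genes. The members lie between 4.71 and 15.0 and have no gene in the right tail of the all-gene distribution, which reaches 24.3.

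The 2 replicates gave close values for these genes. The fold enrichments of all 33 open members differed by less than 1.5-fold between the replicates. Replicate 1 was the higher in 22 of them and replicate 2 in 11. The median log2 ratio of replicate 2 to replicate 1 was -0.03 over the members and -0.04 over all open promoter regions. Its SD was 0.12 over the members and 0.16 over all, so close values were not particular to the members. The widest gaps were those of Samd9l, with a log2 ratio of -0.34, Parp14, with 0.29, and Isg20, with -0.20.

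**Figure D2:**
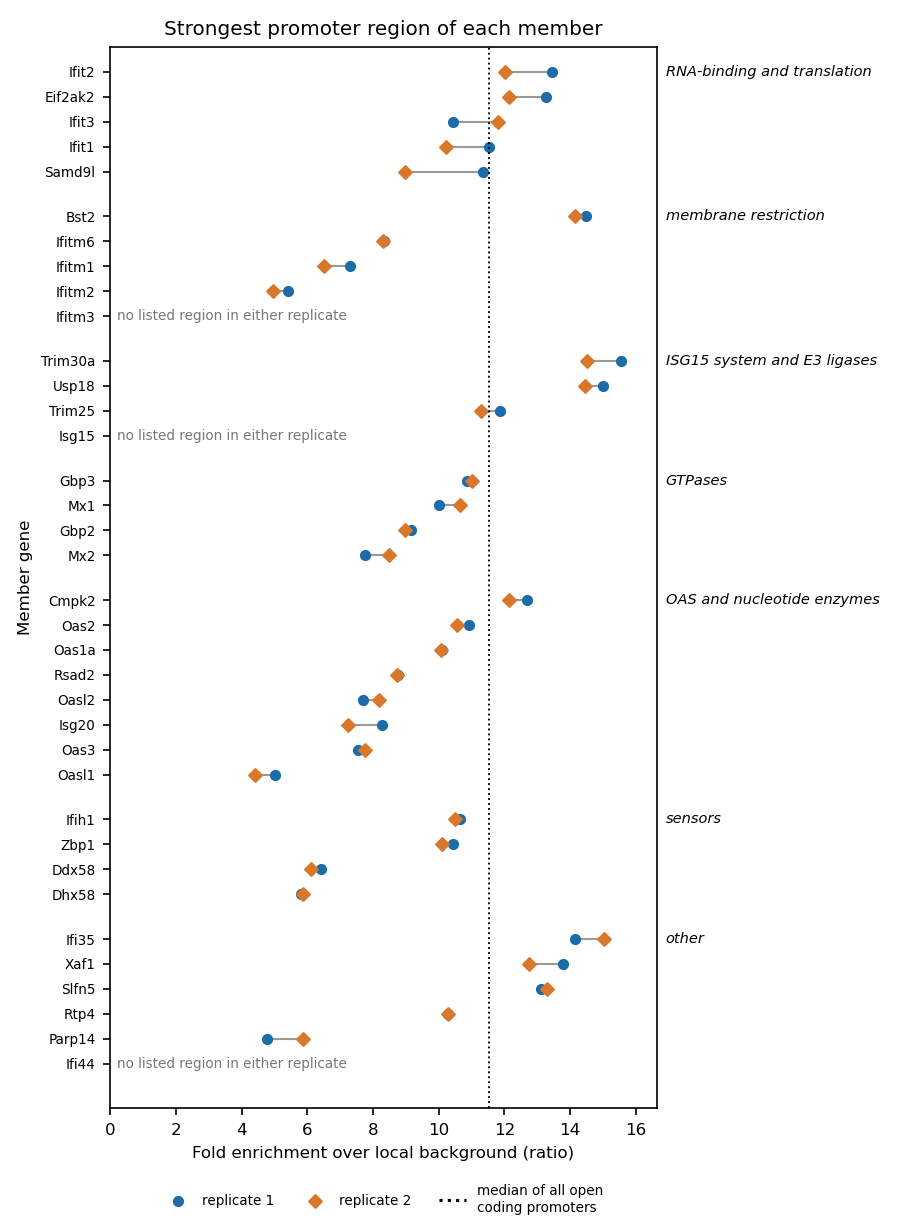
Fold enrichment (a ratio) at the strongest promoter region of each of the 36 members, grouped by role, with 1 point per replicate and a dotted line at the median of all open coding promoters, 11.5. Trim30a, Usp18, Ifi35 and Bst2 lie farthest to the right in both replicates, Oasl1, Ifitm2 and Parp14 farthest to the left, and 3 members have no region.

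All 5 genes that bind foreign RNA or curb its translation were open. Ifit2, whose protein binds RNA and restrains translation, had the strongest promoter of the group, with 13.5 in replicate 1 and 12.0 in replicate 2 (12.7 ± 1.03, SD, n = 2). Eif2ak2 encodes PKR, the kinase that stops translation when it meets double-stranded RNA, and had 13.3 and 12.1. Ifit1, which binds RNA caps that lack a host methyl mark, had 11.5 and 10.2. The values of Ifit2 and Eif2ak2 overlapped, and all lay above those of the other genes of the group. Ifit3, a relative of Ifit1, was the higher in replicate 2, with 11.8 against 10.4 in replicate 1. Samd9l, a restriction factor for poxviruses, was the weakest and most uneven, with 11.3 in replicate 1 and 8.97 in replicate 2 (10.2 ± 1.68, SD, n = 2). Its strongest region lay near an internal start, with the summit 15226 bp from the 5′ end. The region at the 5′ end had 9.53 and 9.92.

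Of the 5 membrane proteins that hold back viruses, 4 were open. Bst2, or tetherin, which holds budding virions on the cell surface, had 14.5 and 14.1 (14.3 ± 0.235, SD, n = 2). The Ifitm genes, which block fusion of viruses with the cell membrane, were all below that. Ifitm6 had 8.35 and 8.32, Ifitm1 had 7.31 and 6.51, and Ifitm2, the weakest, had 5.40 and 4.96 (5.18 ± 0.315, SD, n = 2). Ifitm1 was open near an internal start, with the summit 753 bp from its 5′ end. Ifitm3, the family member best known for stopping influenza virus, had no listed promoter region.

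The system of the ubiquitin-like modifier ISG15 and the E3 ligases had the highest median promoter fold of the groups, 14.7 over 3 open genes, and Isg15 itself had no listed promoter region. Trim30a, a ligase-family gene that restrains Toll-like receptor signals in mice, had the highest mean of all members, with 15.6 and 14.5 (15.0 ± 0.733, SD, n = 2), although in replicate 2 Ifi35 was higher and in the pooled lists Ifi35, Bst2 and Usp18 were. Usp18, the protease that removes ISG15 and damps IFNAR signalling, had 15.0 and 14.5. Trim25, which adds ubiquitin to the RNA sensor RIG-I, was the weakest open gene of the group, with 11.9 and 11.3 (11.6 ± 0.397, SD, n = 2). The 4 Trim30a and Usp18 values all lay above those of Trim25. Usp18 also had a second shared region at an internal start, where replicate 1 had 6.86 and replicate 2 had 10.2.

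All 4 dynamin-like GTPases were open. Gbp3, a guanylate-binding protein that attacks pathogen-containing vacuoles, had 10.9 and 11.0 (10.9 ± 0.101, SD, n = 2). That value depended on the pairing of regions, since under 50% reciprocal overlap only a weaker region of Gbp3, with a mean fold of 3.35, was kept. Mx1, whose intact protein blocks influenza virus in the nucleus of mouse cells, had 10.01 and 10.6. Gbp2, a relative of Gbp3, had 9.14 and 8.98, with the summit 729 bp from its nearest start, but 5.996 when replicate 2 was left out. In replicate 1 alone, the region with 9.14 therefore lay outside the 500 bp window. Mx2, annotated here as a polymorphic pseudogene, was the lowest, with 7.76 and 8.49 (8.12 ± 0.512, SD, n = 2), and fell below the lower quartile of all open genes. Mx1 and Mx2 are near copies of each other at their starts.

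The 8 genes of the oligoadenylate synthetases and of nucleotide and nucleic acid enzymes were all open. Cmpk2, a mitochondrial nucleotide kinase next to Rsad2, was the strongest, with 12.7 and 12.1 (12.4 ± 0.386, SD, n = 2). Among the synthetases, whose product activates RNase L, Oas2 had 10.9 and 10.5, Oas1a had 10.1 in both replicates, and Oas3 had 7.53 and 7.76. Among the synthetase-like genes, Oasl2 had 7.70 and 8.17, and Oasl1 had the lowest mean of all members, with 5.01 and 4.42 (4.71 ± 0.412, SD, n = 2). In replicate 1 Parp14 was lower, and a window of 1 kb around the starts gave Oasl1 a stronger region, with a mean of 10.9. Rsad2, or viperin, which makes a chain-terminating nucleotide, had 8.76 and 8.73. Isg20, an exonuclease, had 8.28 and 7.23. In the window of 500 bp, the neighbours Oasl2 and Oasl1 did not overlap in their values, nor did the neighbours Cmpk2 and Rsad2. In the window of 1 kb, Oasl2 also moved, to a mean of 10.3, which is below the 10.9 of Oasl1.

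All 4 nucleic acid sensors were open, as a stronger and a weaker pair. Ifih1, or MDA5, which detects long double-stranded RNA, had 10.6 and 10.5 (10.6 ± 0.108, SD, n = 2). Zbp1, a sensor of left-handed nucleic acid that can start cell death, had 10.4 and 10.1. Ddx58, or RIG-I, which detects RNA with a 5′ triphosphate, had 6.43 and 6.11. Dhx58, or LGP2, a helper of the other two helicases, had 5.81 and 5.87 (5.84 ± 0.0390, SD, n = 2). Every value of the stronger pair exceeded every value of the weaker pair.

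Of the 6 remaining genes, 5 were open. Ifi35 was the strongest, with 14.1 and 15.0 (14.6 ± 0.627, SD, n = 2). Xaf1, a pro-apoptotic antagonist of XIAP, had 13.8 and 12.8, and Slfn5, a Schlafen-family gene, had 13.1 and 13.3. Rtp4, which restrains flaviviruses, had 10.3 in both replicates. Parp14, an ADP-ribosyl transferase, was the weakest, with 4.78 and 5.86 (5.32 ± 0.765, SD, n = 2). The regions of Rtp4 and Slfn5 lay near internal starts, with summits 89611 and 1388 bp from the annotated 5′ end. For 29 of the 33 open members, the strongest region lay within 500 bp of the 5′ end. The same share over all open coding genes is not given here.

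The regions lay about as close to a start as those of other genes. The median distance from summit to nearest start was 54 bp over the members and 55 bp over all open coding genes, and 27 members had it within 150 bp. The median width was 917 bp over the members' strongest regions and 855 bp over all 11761 such regions. No other gene had a start at 28 of the members' regions, and no such share over all genes is given here. At the edge of the window, a minor region of Cmpk2 lay 478 bp from a start, with 4.08 and 3.91. A region 518 bp from a start of Usp18, with 11.0 and 11.3, was left out. For the distal window of 50 kb, a region 49817 bp from an Ifit3 start, with 8.14 and 11.0, was kept, and another 50039 bp from a Dhx58 start, with 7.70 and 7.68, was not.

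Isg15, which encodes the modifier itself, is among the most inducible interferon genes, yet its nearest region was 2171 bp from the 5′ end in replicate 1 and 2025 bp in replicate 2, with folds of 8.50 and 7.39. The 250 bases before its start are shown because they hold 3 overlapping GAAA repeats, in capitals, between 78 and 57 bp upstream of the start and without a listed peak.
Isg15, chr4:156200819-156201068, minus strand: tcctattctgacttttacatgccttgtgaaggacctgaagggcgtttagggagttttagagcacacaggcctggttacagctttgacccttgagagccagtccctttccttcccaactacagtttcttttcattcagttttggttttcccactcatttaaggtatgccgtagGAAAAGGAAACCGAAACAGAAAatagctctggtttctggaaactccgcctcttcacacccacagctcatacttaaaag

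Ifitm3 had 2 GAAA repeats within 500 bp of its 5′ end, and its nearest region began 1359 bp away in replicate 1 and 1308 bp away in replicate 2, with 6.57 and 6.998. Ifi44 had no such repeat there, and its nearest region was 12384 bp away in replicate 1 and 3645 bp away in replicate 2, with 3.21 and 3.84. The lists that the authors called on the pooled samples also had no region within 500 bp of these 3 genes. Repeat-masked sequence made up 9.49% of the 500 bp to each side of the Ifitm3 5′ end, 15.8% at Isg15 and 16.3% at Ifi44. All 3 are CpG-poor, with CpG ratios of 0.353, 0.237 and 0.362 for Ifitm3, Isg15 and Ifi44.

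GAAA repeats were common in the open member promoters. The repeat was found in the strongest region of 24 of 33 open members (72.7%), against 7.91% of 11761 open promoter regions of all coding genes. Within 100 bp of the summit the share was 19 of 33 members (57.6%), against 1.95%. The site nearest to the summit was a median of 47.5 bp from it in the 24 members and 217 bp in the 930 regions of all coding genes with a match. Of those 24 members, 19 had the centre of that site upstream of the nearest start, 18 of them within 200 bp. Many interferon-stimulated genes are known as targets of ISGF3, and a match is a run of letters, not a bound site.

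The closest sites stood at Rtp4, 3.5 bp from the summit, Ifitm2, 5.5 bp, and Ifit1, 6.5 bp. Rtp4 and Zbp1 had the most matches, with 4 each in their region. At the other end, the matches of Gbp2 and Ddx58 lay 755.5 and 651.5 bp from the summit of their regions. The 9 open members without a match were Ifit2, Samd9l, Ifitm1, Ifitm6, Trim25, Mx1, Cmpk2, Ifi35 and Xaf1. Among them, Trim25 had 1 match to GGAA, any 2 bases and GAAA, the composite site at which PU.1 and IRF factors meet, and Ifitm6 and Cmpk2 had 2 each. Over whole regions, this composite pattern stood in 5 of 33 open members (15.2%), against 7.23% of all open coding promoters.

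Counted by position rather than by peak, 20 of 36 members (55.6%) had a GAAA repeat from 250 bp before to 50 bp after the 5′ end, against 3.57% of 21755 coding genes. A stricter form, GAAAC, any base and GAAA, stood within 100 bp of the summit in 21.2% of open members, against 0.595% of open coding promoters. The GAS pattern TTCNNNGAA, which can overlap a GAAA repeat by its last bases, stood there in 15.2% of members and 3.80% of all. The composite pattern, which shares GAAA with the main repeat, stood in 9.09% and 1.99%. The RUNX pattern TGTGGT stood in 21.2% and 9.23%, from 7 members.

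Within 100 bp of the summit, the core patterns of 2 other factor families were about as frequent as elsewhere. The ETS pattern GGAAGT, which can overlap the composite site by GGAA, stood in 30.3% of members and 27.3% of all open promoters. The GATA pattern AGATAA stood in 3.03%, from 1 member, and in 2.66%. The KLF/SP pattern GGGCGG, made of the bases of CpG-rich promoters, was the only searched pattern with the lower share in members, at 33.3% against 59.8%. All 8 patterns were searched on both strands in this window around the summit, and these shares rest on 33 regions. Over whole regions, the ETS pattern stood in 69.7% of members and 53.1% of all, and the GATA pattern in 27.3% and 17.4%.

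**Figure D3:**
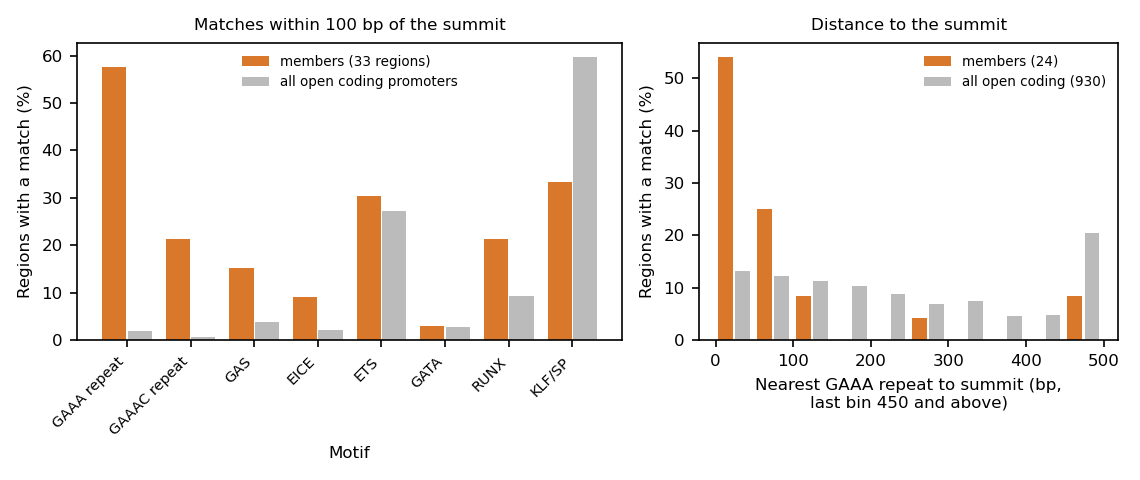
Left, percent of strongest promoter regions with each of 8 sequence patterns within 100 bp of the summit, for 33 member regions and all open coding promoters. Right, percent of the 24 member regions and 930 coding regions that have a GAAA repeat, by its distance from the summit in bp. The member bars for the GAAA repeat reach 57.6% on the left and are concentrated in the bins under 100 bp on the right.

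Distal regions are those with no part within 1 kb of any annotated transcript start. Each of the 36 members had at least 1 within 50 kb of a start, against 77.3% of coding genes. At least 5 were found for 22 of 36, against 33.0% of coding genes. The median was 5 per member and 3 per coding gene. Members in clusters share regions, so the 155 distinct regions include 44 that lie in the windows of several members. For 75 of the 155, the nearest coding gene was a member.

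**Figure D4:**
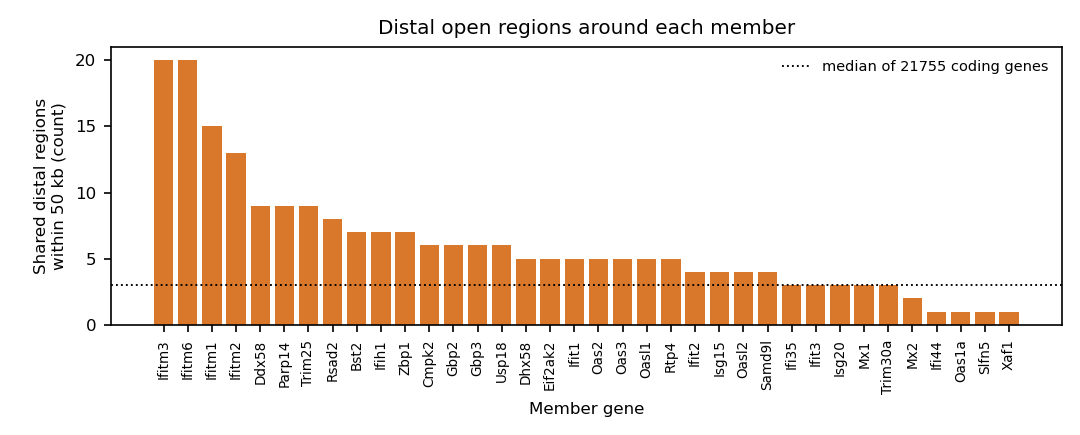
Number of shared distal regions within 50 kb of each of the 36 members, with a dotted line at the median of 21755 coding genes, 3. The 4 Ifitm genes stand apart at the left with 13 to 20 regions, while Ifi44, Oas1a, Slfn5 and Xaf1 have 1 each.

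The Ifitm genes had the most distal regions, 20 each for Ifitm3 and Ifitm6, 15 for Ifitm1 and 13 for Ifitm2. Next came Ddx58, Parp14 and Trim25, with 9 each. The Ifitm windows largely coincide, so these counts describe 1 locus. The regions near members had a median fold of 7.50, against 7.12 over all 48720 shared distal regions, and a median width of 405 bp, against 417 bp. By their summits, 13.5% lay in exons, 39.4% in introns and 47.1% between genes, against 5.54%, 51.9% and 42.6% of all shared distal regions. A GAAA repeat stood within 100 bp of the summit in 9 of the 155 (5.81%), against 3.84% of all, so the repeat was far less frequent in distal regions than in the members' promoters.

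The strongest distal region in any member's window, chr6:3447408-3447849, lay 48041 bp from a Samd9l start, with 25.5 in replicate 1 and 24.6 in replicate 2, but its nearest coding gene was Hepacam2. The next, chr8:71495019-71495400, lay in an intron of Gtpbp3 in the Bst2 window, with 19.3 and 18.3. Both exceeded every promoter region of a member in both replicates. In the Ddx58 window, chr4:40287447-40287894 had 14.9 and 16.5, and in the Usp18 window chr6:121200528-121201070 had 14.0 and 15.6. Their nearest coding genes were Ndufb6 and Tuba8. Of the 5 strongest distal regions, only that of the Ifitm cluster, chr7:140981750-140982567 with 15.8 and 15.5, had a member as its nearest coding gene.

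The Ifitm cluster on chromosome 7 was therefore examined along its length. Over 84.4 kb, from the neighbouring gene Pgghg to past Ifitm6, the replicates together listed 23 regions, of which 21 were shared and 17 of those were distal. The mean folds of the shared regions ran between 3.62 and 15.7, with a median of 6.91. The strongest stood at -28.8 kb from the Ifitm3 start, towards Ifitm1, and 13881 bp from the nearest Ifitm1 start. It was stronger than the promoter regions of Ifitm6, Ifitm1 and Ifitm2 in both replicates. Between it and Ifitm3 lay 9 further shared distal regions, 2 of which, with mean folds of 9.73 and 9.64, held a GAAA repeat. The nearest to Ifitm3 had 6.57 and 6.998, so the gene without a promoter region sat beside several open distal ones.

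**Figure D5:**
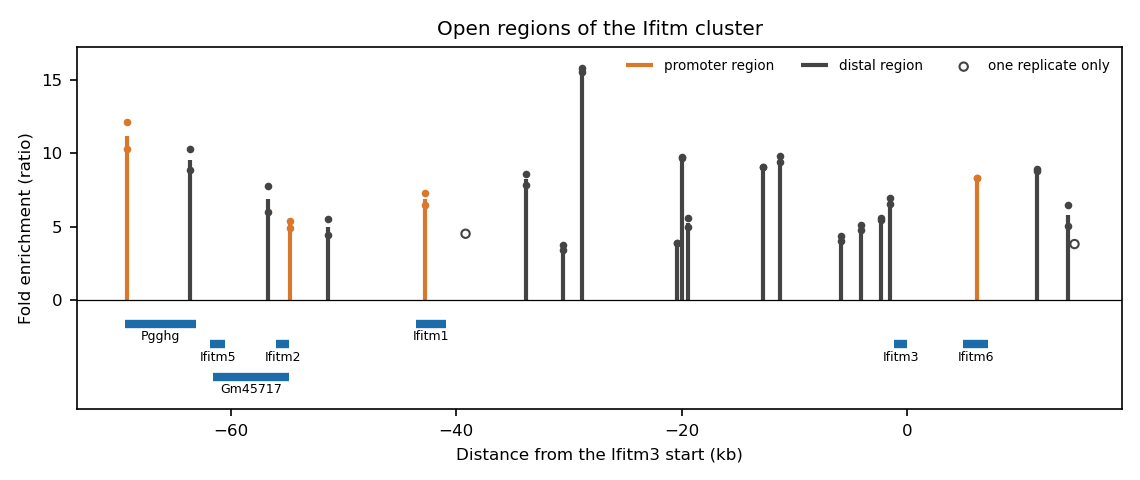
Open regions of the Ifitm cluster by distance of the summit from the Ifitm3 start in kb, with fold enrichment (a ratio) on the vertical axis, bars at the mean of 2 replicates, a point per replicate, open circles for regions of 1 replicate, and genes drawn below. The tallest bar, at 15.7, is distal and lies between Ifitm1 and Ifitm3, and no bar stands at Ifitm3 itself.

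The Ifit cluster on chromosome 19 differed in make-up. Over 109 kb it held 14 regions, 13 of them shared, and only 4 of those were distal. Each annotated coding gene in it had a shared region at its start. Ifit3b, a near copy of Ifit3, had 9.96 and 11.6. Ifit1bl1 had 6.63 and 7.77 at its stronger region and 6.07 and 7.41 at the other.

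Near-identical sequence limits some of these values, since reads from copies cannot always be placed. Of the 33 strongest regions, 6 had a copy elsewhere of at least 200 bp at 90% identity or more. Samd9l had one at 99.5% on the same chromosome, Ifitm1 at 98.2% beside Gm7676, Ifit3 at 96.4% at Ifit3b, and Trim30a at 92.2% at Trim30d. Mx1 and Mx2 matched each other at 93.3%. Without these 6 genes, 27 open members remained, 21 of them with a GAAA repeat.

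The rest of the pathway was also largely open. The counts below can be read against the 59.8% of all coding genes with an open promoter. That share was 84.8% at or above the CpG limit and 28.8% under it. All 9 genes for receptors and their kinases had an open promoter, led by Ifnar1 (14.3 and 14.9), Jak1 (14.0 and 14.3) and Tyk2 (14.3 and 14.0). So did all 9 genes of ISGF3 and the IRF family, among them the ISGF3 genes Stat2 (18.0 and 18.3) and Irf9 (13.1 and 12.7). Within each replicate, the Stat2 promoter exceeded every member promoter. All 10 genes that turn sensing into interferon production were open, led by the adaptor Mavs (17.5 and 17.0), the DNA sensor Cgas (13.1 and 11.7) and the kinase Ikbke (11.4 and 10.6). All 6 feedback genes were open, led by Pias1 (18.9 and 19.99), Ptpn1 (16.7 and 15.2) and Ptpn2 (10.7 and 10.1). The regions of Jak1, Ikbke and Pias1 lay near other starts, with summits 109548, 9189 and 6958 bp from the annotated 5′ end.

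For the genes of the interferons themselves, 2 of 8 had an open promoter, against 59.8% of coding genes, namely Ifng, with 5.33 and 5.92, and Ifna1, with 3.55 and 4.94. Ifnb1, Ifna2, Ifna4, Ifnl2, Ifnl3 and Ifnk had none in either replicate. Of 35 further interferon-induced genes, 33 were open, against 59.8% of coding genes, and 22 of these held a GAAA repeat in their strongest promoter region. Neighbours share some of these regions, so the 33 genes had 29 distinct ones, 19 of them with a repeat, against 7.91% of open promoter regions of coding genes. The strongest of them were the GTPases Irgm2 and Igtp, which share a region with 18.4 and 19.1, and Trim21, with 18.6 and 16.8. Gbp6 had none, and Oas1g had a region in replicate 1 only. The Ifna, Ifnl, Oas1 and Gbp genes belong to families of similar copies, so their reads may be hard to place.

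Markers of other cell types were open in the same libraries. Their counts can be read against the 59.8% of all coding genes with an open promoter. Of 16 megakaryocyte markers, 7 (43.8%) had an open promoter and 2 more had a region in 1 replicate, with mean folds between 3.27 and 13.5. Itga2b, Itgb3, Pf4, Vwf, Gata1, Fli1 and Nfe2 were open. For Itga2b, Vwf, Gata1 and Fli1, the strongest region lay near another start, more than 500 bp from the annotated 5′ end. Gp1bb, Gp5, Gp6, Ppbp, Tubb1 and Treml1 had no region in either replicate, so only some defining markers of the labelled cell type were open. Of 10 neutrophil markers 9 were open (all but Elane), between 4.91 and 11.8, and of 10 monocyte and macrophage markers 7 (all but C1qa, C1qb and Marco), between 5.64 and 14.1. Plasmacytoid dendritic cell markers were open for 3 of 6, between 4.99 and 11.7, without Klk1, Cox6a2 and Spib. Erythroid markers were open for 3 of 6, between 6.11 and 9.45, without Alas2, Klf1 and Slc4a1. T cell markers were open for 1 of 5, Cd3d at 14.7, with the summit 674 bp from its nearest start. Among these markers of other cell types, the strongest regions of Mpo, Csf1r, Tcf4, Epor and Cd3d also lay more than 500 bp from the 5′ end. The part of other cells in the member promoters was not tested.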

How the data were processed

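ATAC-seq peak lists of 2 megakaryocyte samples, 1 group per the labels, were analysed on build mm10. The aligner, the peak caller and their versions are not given in the sources used here. The authors deposited narrowPeak lists whose column 7 is fold enrichment over local background (a ratio), columns 8 and 9 the −log10 p-value and −log10 q-value, and column 10 the summit position. These meanings come from the peak format. The sample lists used were called on each sample, and the replicated and conservative lists on pooled samples. No scaling between samples is stated, and 0 columns of values were left unmapped. No read counts were at hand, so depth is unknown and no interval was computed.

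Peaks overlapping by at least 1 bp were merged, keeping the highest fold and its summit, on chromosomes 1 to 19 and X. A shared region is the union of regions overlapping between replicates. A promoter was open with a shared region within 500 bp of any GENCODE M21 transcript start. Distal regions had no part within 1 kb of any start. CpG ratios were taken over 500 bp to each side of the 5′ end, and copies were sought with BLAST 2.17.0. Scripts used Python 3.11.15, pandas 2.3.3, NumPy 2.4.6 and pysam 0.24.0, and were tested on simulated data. Of the 36 members, 28 matched a RefSeq promoter entry.

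The members, lists and settings were chosen with earlier results of these data known. Some listed genes are not reported here. Values were named for the strongest and weakest open member of each role group, the 3 with the widest replicate gap, those with most distal regions and the 5 strongest distal regions. The other members' values, the regions nearest to the 3 members without a promoter region and the extremes of the distances to GAAA repeats were added after their values were seen. Alternatives were the thresholded lists of each sample (IDR, irreproducible discovery rate), the pooled lists, other windows, overlaps and starts, a 4-fold minimum, −log10 p in place of fold, and each replicate left out.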

Additional observations from a re-analysis of the deposited data

How the results depend on the processing

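The count of open members was 33 in the pooled lists, with either replicate left out, with a minimum fold of 4, in windows of 250 bp and 1 kb, and with coding transcripts only. It was 26 in the IDR lists of each sample, where 52.8% of coding genes were open, with Ifitm1, Ifitm2, Oas1a, Oasl1, Ddx58, Dhx58 and Parp14 lost. It was 30 with the 5′ end as the only start, without Ifitm1, Rtp4 and Slfn5, and 32 with 50% reciprocal overlap (without Ddx58) or with summits within 100 bp (without Parp14). The 155 distal regions became 80 in the IDR lists, 252 within 100 kb, 87 within 20 kb and 75 when the nearest coding gene had to be a member, and 174 to 175 with a replicate left out. The 24 members with a GAAA repeat became 10 with the stricter form GAAAC, any base and GAAA, and 23 to 24 with a replicate left out. The median promoter fold of 10.3 became 10.8 in the IDR lists, where 7 members are no longer open, and 11.0 in the replicated and the conservative lists, for which the cause was not tested. It was 10.2 to 10.4 with a replicate left out, and the median −log10 p in its place was 54.8. The median log2 ratio between replicates stayed between -0.08 and 0.06. Of 384 values of single members under these settings, 333 moved by no more than the spread (SD) between replicates and 51 by more. Many of the 333 could not do otherwise. With a replicate left out, a value from the same region always stays within that spread, and several settings returned the same value. The 333 therefore do not measure robustness. The single values that moved by over 1.5 times were Gbp3 (3.35 under reciprocal overlap against 10.9), Oasl1 (10.9 in the window of 1 kb against 4.71) and Gbp2 (5.996 without replicate 2 against 9.06). Alternatives that left out members with a near copy were chosen after seeing the data. No paired analysis was possible because there was only 1 group. Depth is unknown, so a missing region may be one that was not detected.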
